A study of Mus musculus with 12 samples.

Results

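The response of CnAb1 transgenic mouse hearts to pressure overload was measured on 6 of the 12 arrays of the series, chosen by their titles: 3 Transgenic TAC arrays and 3 Transgenic Sham arrays. The transgenic mice were of the C57/Bl6 strain and overexpressed CnAb1, an alternatively spliced form of the beta isoform of the calcineurin catalytic chain. TAC is transverse aortic constriction, in which a band around the aorta raises the pressure that the left ventricle pumps against, and sham is the operation without the band. Hearts were taken at day 21 after surgery, although the time label of the sham samples reads 0, and RNA came from a section of the left ventricle. The other 6 arrays, 3 each of wild-type C57/Bl6 hearts after sham or TAC, serve here for comparison and share no array with the transgenic groups. The labels name neither the promoter that drives the transgene nor the animal behind each array, so p-values measure only the spread between arrays, which may be technical.

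Pressure overload makes heart muscle cells enlarge, and the enlarging ventricle commonly turns on genes of the fetal heart, lays down collagen-rich matrix, and lowers genes of fatty acid oxidation and mitochondrial respiration. Calcineurin is a calcium-activated phosphatase that sends NFAT transcription factors into the nucleus, a signal known to drive hypertrophic growth. CnAb1 carries an alternative C-terminal end in place of the autoinhibitory one and is known for acting through other pathways than the common calcineurin forms, among them Akt signalling and, through ATF4, the synthesis of serine and one-carbon units.

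Each value below is a log2 signal relative to the 75th percentile of its array, so a difference of 1 is a 2-fold change. Differences are TAC minus sham, given with a standard error (SE) from limma and 3 arrays in each group. Transgenic sham 2 had a raised background: the net brightness of its negative control spots was 48.6, where every other array had 15.4 to 21.0, and 37.2% of 39429 probes stood well above background on it against 60.3% to 78.2%. The transgenic sham arrays lay on slides 1, 2 and 3, while TAC 1 and TAC 2 shared slide 4, which held no sham array, and TAC 3 lay on slide 1 beside sham 1. Slides 3 and 4 held no array of another group. A fit with slide as a fixed block thus takes its transgenic difference from TAC 3, sham 1 and sham 2, linked through wild-type arrays. TAC 1, TAC 2 and sham 3 do not inform it. Ppp3cb, the gene that encodes the calcineurin A beta subunit, had 1 probe, and its level in transgenic sham hearts was 0.27 below that in wild-type sham hearts. Where that probe lies relative to the transgene was not determined, so it does not check the labels.

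In transgenic hearts TAC changed no gene past the threshold of an adjusted p under 0.05: limma called 0 of 25321 genes (0.00%), and the lowest adjusted p was 0.577. At an unadjusted p under 0.05 limma counted 1579 genes (6.24%), 859 of them higher and 720 lower, and the fit of the 2 transgenic groups alone gave 0 called genes and 783 at that unadjusted level. Leaving out transgenic TAC 3 gave the only calls of any setting tried, 3 in number: Serpinb6d, a serine protease inhibitor gene, higher by 1.46 with an adjusted p of 0.044, and the probes A_55_P2179069 and A_66_P102163, which carry no symbol here. For 16621 genes (65.6%, against 53.5% in wild-type hearts) the 95% interval of the difference lay within 2-fold either way. The groups did not overlap in 2155 genes (8.51%), 1115 higher and 1040 lower. The median interval reached 1.41-fold either side of its estimate.

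In wild-type hearts the same test called 5438 genes (21.5%), 2243 higher (8.86%) and 3195 lower (12.6%). There 1372 genes (5.42%) stood higher and 1188 (4.69%) lower by more than 2-fold, and the groups did not overlap in 4461 (17.6%) and 7326 (28.9%). The difference between the responses, transgenic minus wild-type, was itself past the threshold for 1847 genes (7.29%), with 1069 (4.22%) higher and 778 (3.07%) lower in the transgenic comparison. The direction of that split depended on the scaling: quantile normalization gave 331 higher and 571 lower, and median scaling 202 and 417. In wild-type hearts quantile normalization gave 2205 higher and 1995 lower. None of these 1847 calls was kept with normexp background correction or with slide as a fixed block, both of which gave 0; at an unadjusted p under 0.05 they counted 2973 and 5792 genes. Every adjusted p below is from limma with no slide block.

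The scaling also shifted all genes together: the median transgenic difference was -0.01 in the values given here, -0.08 with median scaling and 0.13 with normexp. List medians closer to 0 than these shifts carry no direction.

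Differences beyond 2-fold were split unevenly between the directions in transgenic hearts, with 160 genes higher (0.632%) and 788 lower (3.11%). Of the 788 lower genes, transgenic sham 2 was the highest of the 6 arrays in 622, and 117 were well above background on all 6 arrays. These genes were picked for a higher sham mean, so a sham array tends to be the highest. As a different measure, sham 2 was the highest or lowest of the 3 transgenic sham arrays in 52.6% of all genes. Without transgenic sham 2 the numbers were 345 higher and 287 lower, and 89 and 237 of the original genes remained among them. Atp9b, a phospholipid flippase gene, shows the pattern: sham read -4.40, 0.04 and -4.29 and TAC -4.82, -4.94 and -5.32. Sham 2 alone stood high, and the difference of -2.15 became -0.69 without it. Susd4, a complement regulator gene, went from -1.56 to -0.30 and Zfp385b, a zinc finger gene, from -1.39 to -0.50 in the same way. Susd4 and Zfp385b were likewise high on sham 2 alone.

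The genes that responded most in wild-type hearts stayed close to their sham level in transgenic hearts. Over the 987 genes called higher and beyond 2-fold in wild-type hearts, the median difference was 1.44 in wild-type and 0.07 in transgenic hearts, and 60.6% lay above 0 in transgenic hearts against 48.1% of all genes. Over the 647 genes called lower and beyond 2-fold, the medians were -1.27 and -0.08, with 41.4% above 0. The transgenic sham level of both sets lay between those of the wild-type groups. Relative to the transgenic sham mean, the 987 genes had a median level of -0.62 to -0.47 on wild-type sham arrays and 0.77 to 1.15 on wild-type TAC arrays. The 647 genes had 0.49 to 0.56 on wild-type sham arrays and -1.06 to -0.60 on wild-type TAC arrays. The test of the difference between the responses, which uses the wild-type values that chose these genes, called 480 of the 987 and 232 of the 647. The small shift toward the wild-type direction came with 1 array. Relative to the transgenic sham mean, the 987 genes had a median level of -0.11, 0.25 and 0.08 on TAC 1, 2 and 3, and of 0.10, 0.00 and -0.12 on the sham arrays, so TAC 2 alone lay above all sham arrays. Without TAC 2 the medians of the groups were -0.02 and 0.03, and with slide as a fixed block they were -0.11 and -0.09.

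**Figure D1:**
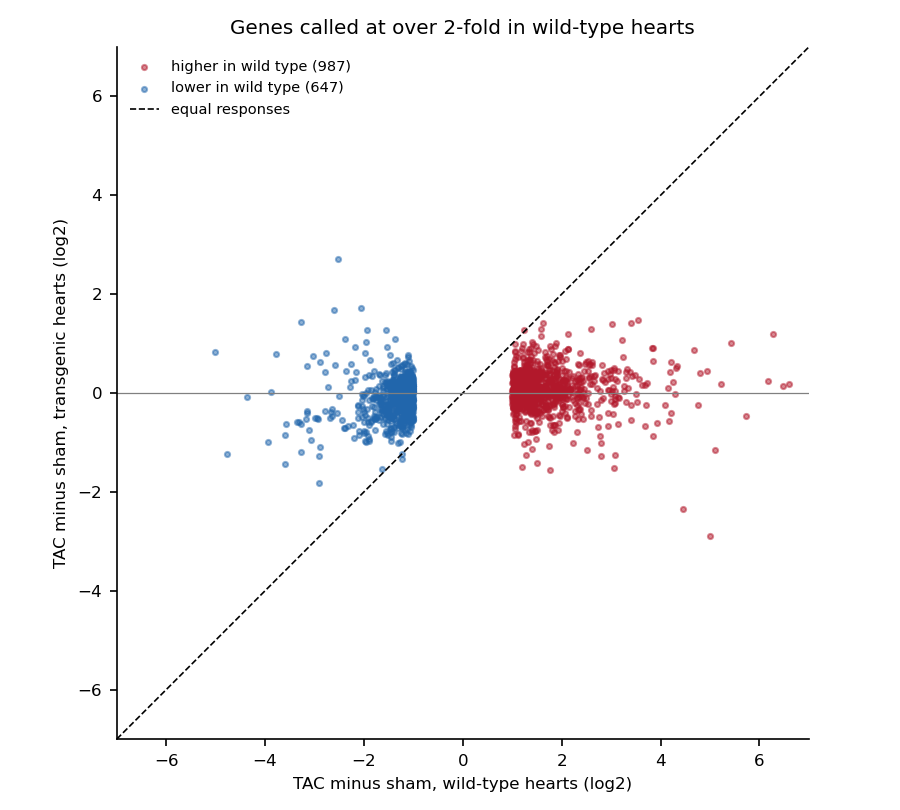
TAC minus sham (log2) in wild-type hearts (x axis) against transgenic hearts (y axis) for genes called at over 2-fold in wild-type hearts, 1 point a gene, red for the 987 higher and blue for the 647 lower genes; the dashed line marks equal responses. The points lie in a flat band about 0 on the y axis, with transgenic medians of 0.07 and -0.08, and few reach the dashed line.

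Genes of the fetal and hypertrophic program showed mostly small differences, more of them above 0 than below, in transgenic hearts. Of 14 such genes, 10 lay above 0 (71.4%, against 48.1% of all genes). Without overlap, 3 were higher, against 4.40% of all genes, and 1 was lower, against 4.11%. Of the 14, 0 were called and 3 were above 0 with an unadjusted p under 0.05, against 3.39% of all genes. The median difference was 0.18, against -0.01 over all genes and 1.67 for the same genes in wild-type hearts. There 9 were called higher, against 8.86% of all genes. The transgenic list median stayed above 0 under each alternative, from 0.04 to 0.26. It was 0.11 without TAC 2 and 0.04 with slide as a fixed block, and the list's level on TAC 1 (-0.04) lay at that of sham 1 (-0.03). Myh7, the beta myosin heavy chain of the fetal ventricle, read 8.34, 8.12 and 8.31 in transgenic sham and 7.98, 8.07 and 7.99 in transgenic TAC. Every TAC array was slightly lower than every sham array, all 6 arrays stood close to the wild-type TAC mean of 7.95, and the sham mean was 3.71 above that of wild-type sham. The transgenic difference of -0.24 ± 0.36 (SE) had a 95% interval from -1.04 to 0.56, while wild-type hearts rose by 3.41 ± 0.36 (adjusted p = 0.000796), and the responses differed by -3.65 ± 0.51 (adjusted p = 0.0137).

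Nppa, which encodes atrial natriuretic peptide, read 6.93, 6.78 and 6.71 in transgenic sham and 6.40, 8.03 and 7.13 in transgenic TAC. The TAC arrays ran from below to above the sham arrays, with TAC 2 highest. The difference was 0.38 ± 0.35 and turned to -0.04 without TAC 2, against a rise of 2.97 ± 0.35 in wild-type hearts. Nppb, the gene of brain natriuretic peptide, differed by 0.09 ± 0.40, with TAC 1 at 5.62 above and the other TAC arrays at 4.08 and 3.82 below all sham arrays. Ankrd1, a stretch-responsive titin-binding protein gene, differed by 0.43 ± 0.22, with overlapping groups, against 1.60 ± 0.22 in wild-type hearts.

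Acta1, the skeletal alpha actin that the fetal heart also uses, had the largest difference of the list. It read 3.29, 3.82 and 4.90 in transgenic sham and 6.09, 6.63 and 6.26 in transgenic TAC. Every TAC array lay above every sham array, as for 4.40% of all genes, and the difference was 2.32 ± 0.72 with an adjusted p of 0.793. Wild-type hearts differed by 1.74 ± 0.72, which also missed the threshold, and the responses differed by 0.58 ± 1.02 with an interval from -1.70 to 2.87. Rcan1, an inhibitor of calcineurin that NFAT turns on, read 1.22, 1.41 and 1.55 in transgenic sham and 2.27, 1.85 and 2.00 in transgenic TAC. Its groups did not overlap either, and its difference of 0.65 ± 0.19 (adjusted p = 0.793) compares with a rise of 1.49 ± 0.19 in wild-type hearts (adjusted p = 0.00163). Xirp2, a protein gene of the intercalated disc, was the third gene of the list that was higher without overlap, by 0.69 ± 0.26.

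**Figure D2:**
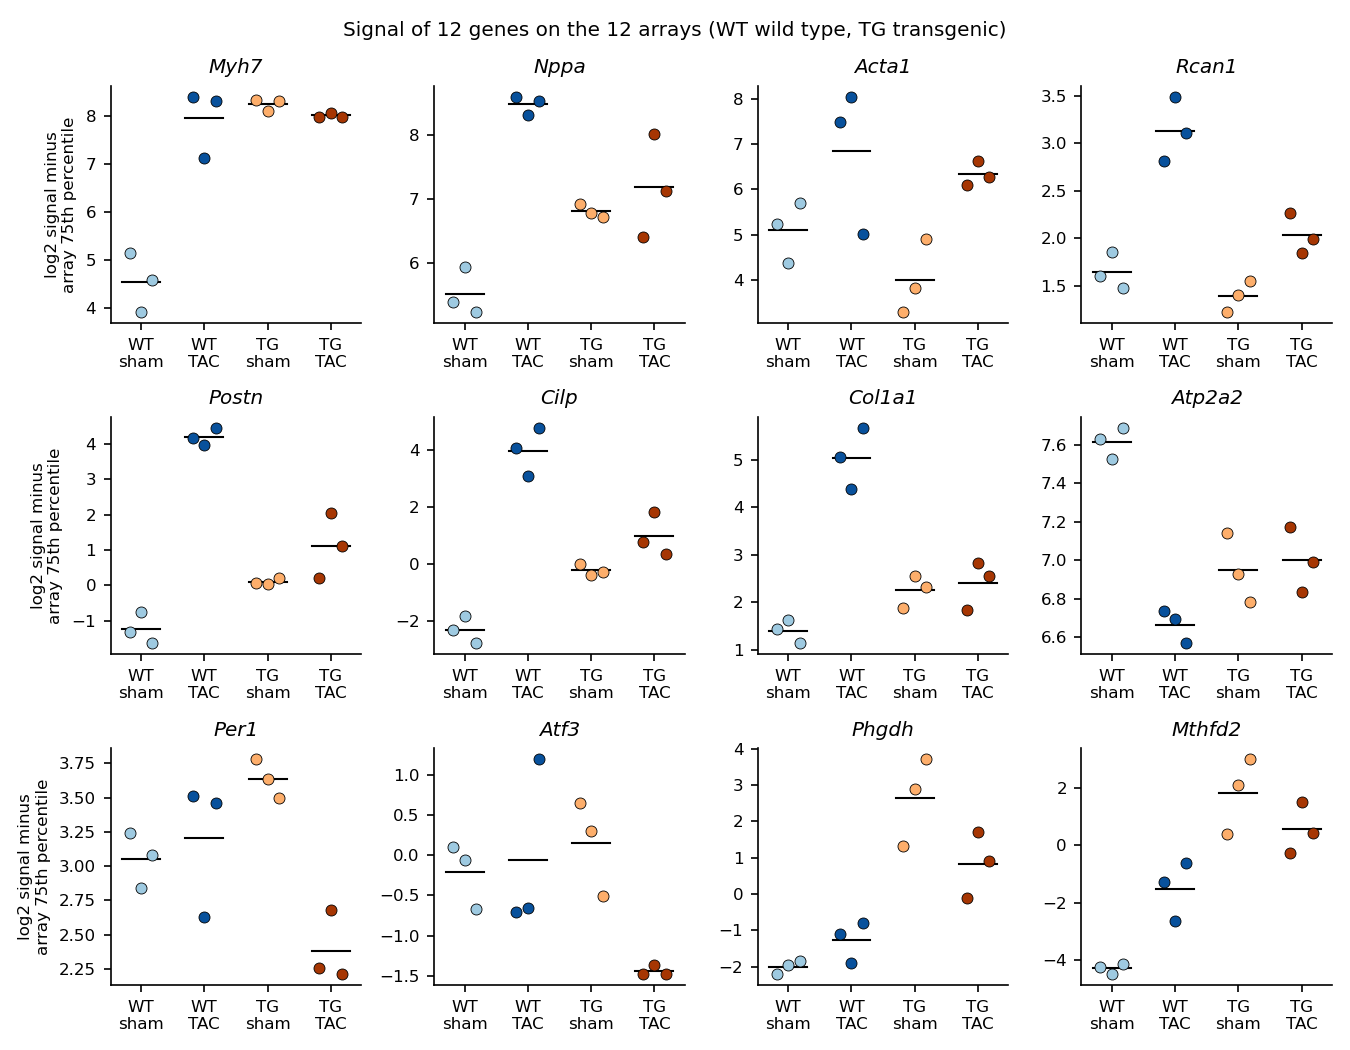
Log2 signal minus the array's 75th percentile (y axis) of 12 genes on the 12 arrays, by group (x axis); each point is an array and each bar a group mean of 3 arrays. Myh7 stands as high in both transgenic groups as in wild-type TAC hearts, Acta1 and Rcan1 are higher on every transgenic TAC array than on any transgenic sham array, and Per1 and Atf3 are lower.

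Matrix genes, the collagens, glycoproteins and crosslinking enzymes laid down by fibroblasts, showed small differences of mostly 1 sign. Of 52 tested, 44 lay above 0 (84.6%, against 48.1% of all genes), 0 were called and 4 were higher at an unadjusted p under 0.05, against 3.39% of all genes. The median difference was 0.22, against 2.38 in wild-type hearts, where 45 were called higher, against 8.86% of all genes. The response of 39 was lower in transgenic hearts by the test of the difference, against 3.07% of all genes. Relative to the transgenic sham mean, the list stood at -0.80 to -0.45 on the wild-type sham arrays. By array, the list's median level relative to the sham mean was -0.01, 0.37 and 0.18 on TAC 1, 2 and 3 and between -0.02 and 0.02 on the sham arrays, so TAC 1 stood at the sham level. Without TAC 2 the list median was 0.10, and with slide as a fixed block 7.6e-05.

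Postn, which encodes periostin, a matrix protein of activated fibroblasts, read 0.06, 0.05 and 0.20 in transgenic sham and 0.20, 2.06 and 1.11 in transgenic TAC. TAC 1 sat at the level of sham 3, and the difference of 1.02 ± 0.40 was 0.55 without TAC 2. Wild-type hearts rose by 5.42 ± 0.40, and the responses differed by -4.40 ± 0.57 (adjusted p = 0.0124). Cilp, a matrix protein that fibroblasts secrete in the loaded heart, read 0.00, -0.37 and -0.26 in transgenic sham and 0.79, 1.83 and 0.35 in transgenic TAC. Here every TAC array was above the sham arrays, by 1.20 ± 0.47, but the difference was 0.08 with slide as a fixed block, against a rise of 6.28 ± 0.47 in wild-type hearts.

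Col1a1, the main fibrillar collagen chain, overlapped fully, with 1.88, 2.55 and 2.33 in transgenic sham and 1.84, 2.83 and 2.55 in transgenic TAC. Its difference of 0.16 ± 0.35 had an interval from -0.63 to 0.94 and wild-type hearts rose by 3.63 ± 0.35. Comp, a cartilage matrix protein gene, differed by 0.19 ± 0.78 against 6.59 ± 0.78 in wild-type hearts, and Ltbp2, a microfibril protein gene, by 0.23 ± 0.50 against 6.17 ± 0.50. Each of these differences between responses passed the threshold, with adjusted p values of 0.0137, 0.0183 and 0.0124. Col5a3 (0.56 ± 0.21), a fibrillar collagen chain, and Fbn1 (0.46 ± 0.21), the fibrillin of microfibrils, had no overlap in transgenic hearts but small differences.

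Energy genes of the heart muscle cell showed small differences in transgenic hearts. All 78 tested genes of oxidative phosphorylation had an interval within 2-fold, against 65.6% of all genes, with a median of 0.02 and differences between -0.21 and 0.35. Dim genes lower that share: with only probes well above background on all 12 arrays, 11363 of 12330 genes had such an interval. In wild-type hearts 75 of the 78 were called lower, against 12.6% of all genes, with a median of -0.73. That median also lies within 2-fold, so the 2-fold bound does not show a kept level. For 57 the transgenic response was higher by the test of the difference, against 4.22% of all genes. Relative to the transgenic sham mean the list stood at 0.33 to 0.40 on the wild-type sham arrays. The 18 genes of the tricarboxylic acid cycle gave a median of 0.02 in transgenic and -0.68 in wild-type hearts, and the 20 of glycolysis 0.02 and -0.39. These lists had 0 calls in transgenic hearts.

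Fatty acid uptake and oxidation was the metabolic list with the most members on 1 side. Of 30 genes, 25 lay above 0 (83.3%, against 48.1% of all genes), with a median of 0.16. The list median was 0.09 with median scaling, where the median over all genes was -0.08. With normexp it was 0.09, below the median of 0.13 over all genes. In wild-type hearts 26 were called lower, against 12.6% of all genes, with a median of -0.88. Relative to the sham mean the list stood at 0.21, 0.00 and 0.25 on TAC 1, 2 and 3 and between -0.04 and 0.02 on the sham arrays, so TAC 2 did not share the difference. Lpl, the lipoprotein lipase that frees fatty acids for uptake, read 7.01, 6.88 and 6.82 in transgenic sham and 7.31, 7.01 and 7.21 in transgenic TAC. TAC 2 equalled sham 1 to 2 decimals, and the difference was 0.27 ± 0.11 against -0.75 ± 0.11 in wild-type hearts (adjusted p = 0.00235). Acadl, a dehydrogenase of long-chain fatty acid oxidation, was higher on every TAC array, by 0.24 ± 0.09. Of 76 mitochondrial ribosome genes, 57 lay above 0, with a median of 0.09. That median was 0.02 with median scaling and 0.03 with normexp, so it carries no direction.

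Atp2a2, which pumps calcium back into the sarcoplasmic reticulum, read 7.14, 6.93 and 6.78 in transgenic sham and 7.17, 6.83 and 6.99 in transgenic TAC. The groups overlapped with a difference of 0.05 ± 0.13, whereas wild-type hearts fell by 0.95 (adjusted p = 0.00189), and the responses differed by 1.00 ± 0.18 (adjusted p = 0.02). Myh6, the adult alpha myosin heavy chain, differed by -0.10 ± 0.11 in transgenic hearts. Trdn, a protein of the calcium release complex, was higher on every TAC array, by 0.38 ± 0.10, and fell by 0.56 in wild-type hearts. Ppargc1a, a coactivator of mitochondrial biogenesis, differed by -0.28 ± 0.37 in transgenic and by -1.80 ± 0.37 in wild-type hearts.

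**Figure D3:**
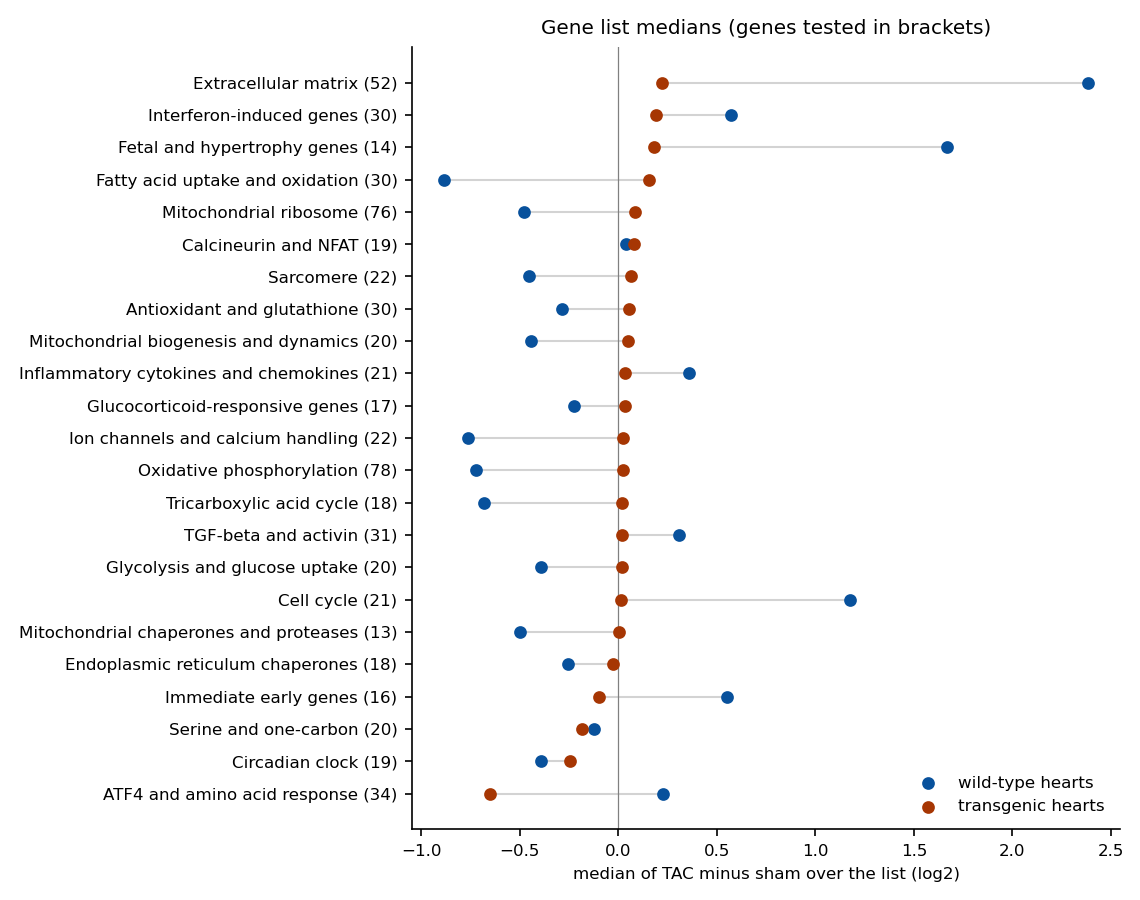
Median of TAC minus sham (log2, x axis) over each of the 23 pathway gene lists (y axis, genes tested in brackets) in wild-type hearts (blue) and transgenic hearts (brown), with a line joining both. All but 1 of the transgenic medians lie between -0.24 and 0.22, and the exception is ATF4 and amino acid response at -0.65.

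Clock genes held several of the larger differences. The clock is a loop in which Arntl (BMAL1) and its partner turn on Per, Cry and other genes through the E-box CACGTG, and the products then repress their own activators. The promoters of Per1 and Ciart, the list's members with the smallest p, are shown because both hold that motif; the letters are the 250 bases before the start site from RefSeq (GRCm38.p6), 5′ to 3′ on the gene's strand, with each CACGTG in capitals. Per1 lies on the plus strand at chr11:69098699-69098948 and Ciart on the minus strand at chr3:95882229-95882478.
Per1: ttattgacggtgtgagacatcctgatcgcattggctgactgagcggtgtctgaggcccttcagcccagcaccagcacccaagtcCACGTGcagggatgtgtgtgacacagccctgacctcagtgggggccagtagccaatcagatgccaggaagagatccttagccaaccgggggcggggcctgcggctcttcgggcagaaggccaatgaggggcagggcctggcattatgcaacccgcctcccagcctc
Ciart: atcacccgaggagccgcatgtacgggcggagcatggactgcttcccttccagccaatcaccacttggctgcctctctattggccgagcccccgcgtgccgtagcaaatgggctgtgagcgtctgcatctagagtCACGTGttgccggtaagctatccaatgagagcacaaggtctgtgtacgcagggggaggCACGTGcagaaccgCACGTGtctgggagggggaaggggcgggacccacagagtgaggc
Per1 holds 1 match, 166 bases before the start, and Ciart 3, at 116, 58 and 44 bases. The motif reads the same on both strands, and 6.86% of 27025 genes with a promoter of this length hold it, as do 5 of 16 clock genes in that table (31.2%). A match is a description of the letters only.

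Per1, a repressor of the loop, read 3.78, 3.63 and 3.50 in transgenic sham and 2.26, 2.68 and 2.21 in transgenic TAC. All 3 TAC arrays lay below every sham array, as for 4.11% of all genes, and the difference was -1.25 ± 0.24 (adjusted p = 0.684). Wild-type hearts differed by 0.15 ± 0.24, and the responses differed by -1.40 ± 0.34 (adjusted p = 0.039). Ciart, another repressor, read -1.12, -1.56 and -1.35 in transgenic sham and -4.92, -2.65 and -3.75 in transgenic TAC. It too was lower on every TAC array, by -2.43 ± 0.56, and in wild-type hearts by -1.75 ± 0.56, which had an adjusted p of 0.0517. The transgenic difference of Ciart was -1.20 with normexp and -0.55 with a common floor under all arrays.

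Arntl, the activator, went the other way, with -4.17, -3.90 and -3.18 in transgenic sham and 0.08, -2.15 and -2.43 in transgenic TAC. Every TAC array was higher, TAC 1 by far, and the difference of 2.25 ± 0.74 was 1.46 without it, 1.37 with normexp and 0.66 with the common floor. Dbp, a transcription factor driven by the loop and named after its values were seen, was lower on every TAC array, by -0.95 ± 0.41. Of all 19 clock genes tested, 13 lay below 0, with a median of -0.24 in transgenic and -0.39 in wild-type hearts. The transgenic median was -0.12 without sham 1, -0.16 without TAC 1, -0.39 without TAC 2, -0.05 with normexp and -0.50 with slide as a fixed block. In transgenic hearts 2 were higher and 3 lower at an unadjusted p under 0.05, against 3.39% and 2.84% of all genes, and 0 were called. The sources used here do not give the time of day at which hearts were taken, and its part in these differences was not tested.

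The amino acid stress program of ATF4 had a median of -0.65, the lowest of the pathway lists under each alternative except 2: without sham 3 and with slide as a fixed block the immediate early genes were lowest, at -0.44 and -0.75. ATF4 is a transcription factor made when protein synthesis is stalled, and it turns on genes of amino acid uptake, serine synthesis and transfer RNA charging through the element TGATGNAA. The promoters of Atf3 and Fgf21, targets of ATF4 in the list, are shown in the same form with the match in capitals, here TTGCATCA, which is the element read on the other strand. Atf3 lies on the minus strand at chr1:191183334-191183583 and Fgf21 on the minus strand at chr7:45615491-45615740.
Atf3: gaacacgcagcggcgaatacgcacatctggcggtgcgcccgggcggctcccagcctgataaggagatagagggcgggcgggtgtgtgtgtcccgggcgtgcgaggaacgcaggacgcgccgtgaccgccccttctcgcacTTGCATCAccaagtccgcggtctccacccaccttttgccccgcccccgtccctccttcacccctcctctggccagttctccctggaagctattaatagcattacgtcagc
Fgf21: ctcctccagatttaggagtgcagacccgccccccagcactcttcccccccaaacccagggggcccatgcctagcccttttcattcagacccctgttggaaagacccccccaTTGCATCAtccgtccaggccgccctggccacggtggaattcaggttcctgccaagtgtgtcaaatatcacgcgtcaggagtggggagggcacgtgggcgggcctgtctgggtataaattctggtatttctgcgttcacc
The matches start 110 and 139 bases before the start site. On either strand, 3.91% of the 27025 genes hold the element in these 250 bases, as do 10 of 31 genes of the list in the table (32.3%), among them Asns, Chac1 and Nupr1.

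Of 34 ATF4 genes tested, 31 lay below 0, leaving 3 above (8.82%, against 48.1% of all genes), and 8 were lower at an unadjusted p under 0.05, against 2.84% of all genes; 0 were called. Without overlap, 2 were lower, against 4.11% of all genes, and 1 was higher, against 4.40%. By array the list's median level was -0.75, 0.06 and 0.75 on sham 1, 2 and 3 and -0.88, -0.33 and -0.74 on TAC 1, 2 and 3, against -1.03 to -0.99 on the wild-type sham arrays. The sham arrays thus spanned more than the TAC arrays, and sham 1 lay within the range of TAC. The list median was -0.22 without sham 3, -1.06 without sham 1 and -0.19 with slide as a fixed block, and on slide 1, which holds sham 1 and TAC 3 alone of these groups, the difference was 0.03.

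Atf3, a repressor that stress signals induce, read 0.64, 0.30 and -0.51 in transgenic sham and -1.47, -1.36 and -1.48 in transgenic TAC. It was lower on every TAC array, by -1.59 ± 0.49. Fgf21, a hormone gene of the stress response, read -3.06, -1.16 and 0.86 against -3.45, -2.02 and -3.46. Its groups overlapped through sham 1, with a difference of -1.86 ± 0.93 that was -0.87 without sham 3. The difference was -1.24 with normexp and -1.17 with the common floor. All 6 arrays stood above the wild-type sham mean of -7.63, but Fgf21 was not well above background in wild-type sham hearts. Phgdh, the first enzyme of serine synthesis, read 1.33, 2.88 and 3.72 in transgenic sham and -0.10, 1.70 and 0.90 in transgenic TAC. Sham 1 again fell among the TAC arrays; the difference was -1.81 ± 0.60, and the sham mean stood 4.65 above wild-type sham.

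Mthfd2, the mitochondrial one-carbon enzyme, differed by -1.28 ± 0.72 in transgenic hearts and rose by 2.79 ± 0.72 in wild-type hearts, and the responses differed by -4.07 ± 1.02 (adjusted p = 0.0433). Gdf15, a secreted stress factor, differed by -1.26 ± 0.77 against a rise of 3.08 ± 0.77, and Psat1, the next enzyme of serine synthesis, by -1.31 ± 0.64 against 1.14 ± 0.64. The transgenic groups overlapped in Mthfd2, Gdf15 and Psat1 alike, and without sham 3 their differences were -0.69, -0.75 and -0.51. Vldlr, a lipoprotein receptor, was the list's member on the higher side with no overlap, at 0.32 ± 0.10. Of 20 serine and one-carbon genes 13 lay below 0, with a median of -0.19.

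**Figure D4:**
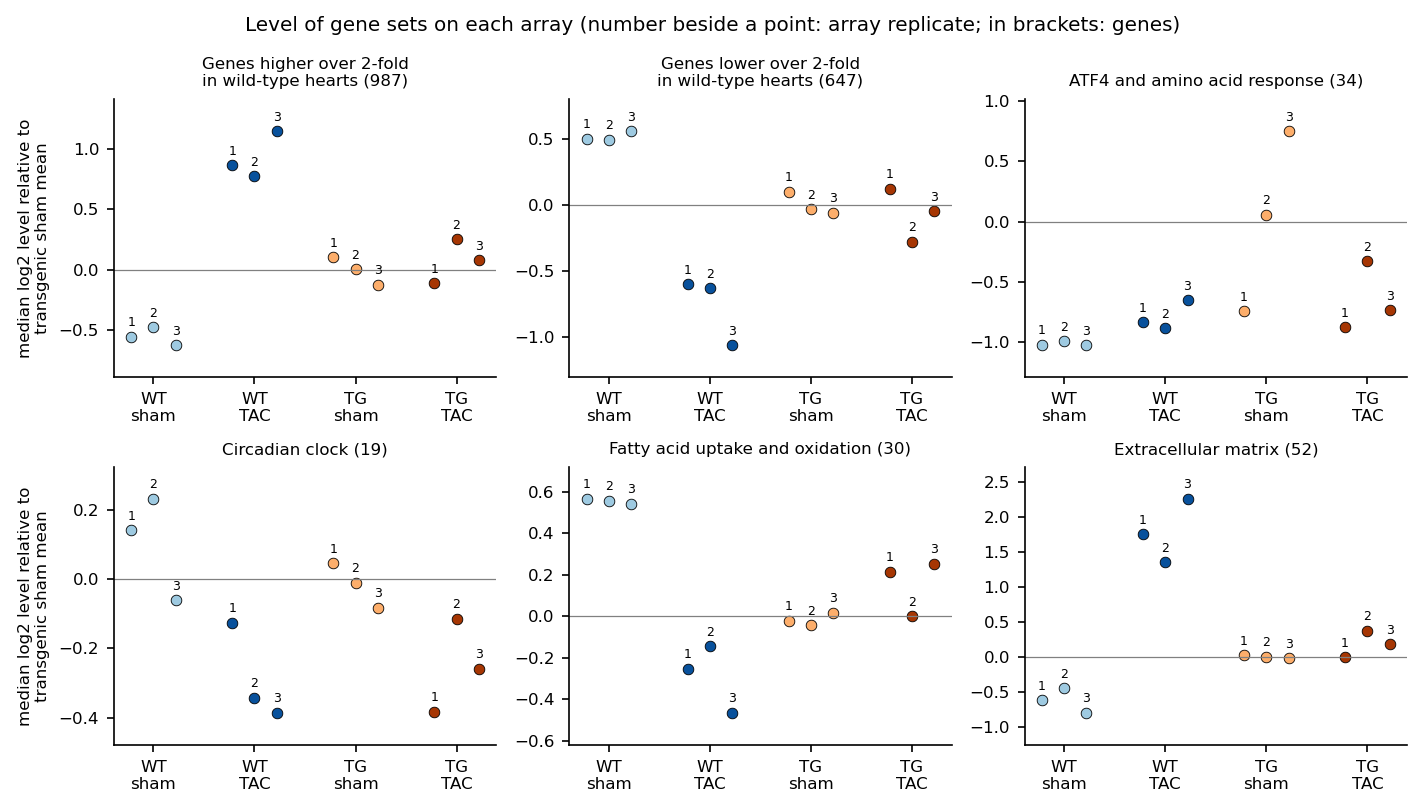
Median log2 level of 6 gene sets on each array relative to the transgenic sham mean of each gene (y axis), by group (x axis), with the array number beside each point. The ATF4 genes spread from -0.75 to 0.75 over the transgenic sham arrays, and the clock genes lie lower on all 3 transgenic TAC arrays than on the transgenic sham arrays. The sets that moved in wild-type hearts stay near 0 on the transgenic arrays.

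Of the genes with the smallest p that were higher after TAC, none passed the threshold. Lonrf3, a gene of a RING finger protein, read -3.81, -4.18 and -3.64 in transgenic sham and -2.68, -2.72 and -2.71 in transgenic TAC. The TAC arrays lay within 0.04 of each other and above all sham arrays, with a difference of 1.17 ± 0.17 (adjusted p = 0.587) beside a rise of 0.98 ± 0.17 in wild-type hearts. Inhbb, the activin beta B subunit, was higher by 1.30 ± 0.22 and rose by 1.58 ± 0.22 in wild-type hearts. The transgenic difference of Lonrf3 was 2.31 with quantile normalization and 0.77 as a mean over its probes, and 2 of 3 sham arrays had it well above background. For Lonrf3 and Inhbb the responses differed by 0.19 ± 0.24 and -0.28 ± 0.31, neither past the threshold. Gbp6, an interferon-induced GTPase, read -1.47, -0.87 and -0.57 against 0.17, 0.69 and 0.45. It was higher on every TAC array by 1.40 ± 0.25 while wild-type hearts differed by -0.39 ± 0.25, and the responses differed by 1.79 ± 0.35 (adjusted p = 0.0235).

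Mgst1, a microsomal glutathione transferase, was higher by 0.63 ± 0.11 and Cdh22, a cadherin, by 1.97 ± 0.41, and both differed between genotypes past the threshold. Hic1 (a transcriptional repressor), Foxs1 (a forkhead factor of pericytes) and Ppp1r3g (a glycogen-targeting phosphatase subunit) were higher by 0.68 ± 0.12, 0.82 ± 0.16 and 1.37 ± 0.25. Among named genes that stood higher, were well above background on all 6 arrays and did not overlap, the largest differences were those of Acta1 and Myot. Myot, a protein of the sarcomere's Z-disc, read 1.72, 0.95 and 1.63 in transgenic sham and 3.23, 3.51 and 3.91 in transgenic TAC. Every TAC array was above every sham array, by 2.12 ± 0.54, while wild-type hearts differed by 0.13 ± 0.54; the difference of 1.99 ± 0.77 between the responses did not pass (adjusted p = 0.14). Mybpc2, the fast skeletal myosin-binding protein C, was higher by 1.41 ± 0.34 in transgenic and rose by 1.62 ± 0.34 in wild-type hearts. Cldn5, a tight junction protein of endothelium, read 1.56, 1.86 and 0.20 against 2.19, 2.57 and 2.76, with sham 3 low, and its difference of 1.30 ± 0.38 was 0.80 without that array.

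Among the genes lower after TAC with the smallest p, none passed the threshold either. Lpin3, a phosphatidate phosphatase, had the smallest p of all genes with a symbol: it read -0.41, -0.10 and -0.16 in transgenic sham and -1.09, -1.10 and -1.06 in transgenic TAC. The groups were well apart, with a difference of -0.85 ± 0.11 (adjusted p = 0.577), and wild-type hearts rose by 0.47 ± 0.11, so the responses differed by -1.32 ± 0.16 (adjusted p = 0.0124). Nfkbia, the inhibitor that holds NF-kappaB in the cytoplasm, read 4.11, 3.93 and 4.02 against 2.95, 3.15 and 3.1. It was lower on every TAC array by -0.96 ± 0.20 and rose by 0.77 ± 0.20 in wild-type hearts. Csrnp1, an immediate early nuclear protein gene, was lower by -1.23 ± 0.27, Klf13, a Kruppel-like factor, by -0.64 ± 0.13 and Csf2ra, the receptor of a myeloid growth factor, by -0.58 ± 0.13.

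Errfi1, a feedback inhibitor of the EGF receptor, read 2.26, 1.70 and 1.29 in transgenic sham and 0.51, 0.55 and 0.44 in transgenic TAC. It was lower on all TAC arrays by -1.25 ± 0.36 and rose by 1.29 ± 0.36 in wild-type hearts, and the responses differed by -2.54 ± 0.51 (adjusted p = 0.0253). Klf9, a glucocorticoid-induced factor, was lower by -0.49 ± 0.13 in transgenic and fell by 0.49 in wild-type hearts. Bhlhe22, a transcription factor of neurons, was well above background on 2 sham arrays and 0 TAC arrays and was at least 3.03-fold lower after TAC, a bound that takes, per array, the dimmest probe still well above background; with normexp its difference was 0.25, on the other side of 0. Ostn, a secreted peptide of muscle, read -3.54, -4.03 and -1.68 against -5.80, -5.81 and -5.54, near the floor of the arrays, and its difference of -2.63 ± 0.57 was -0.48 with normexp.

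**Figure D5:**
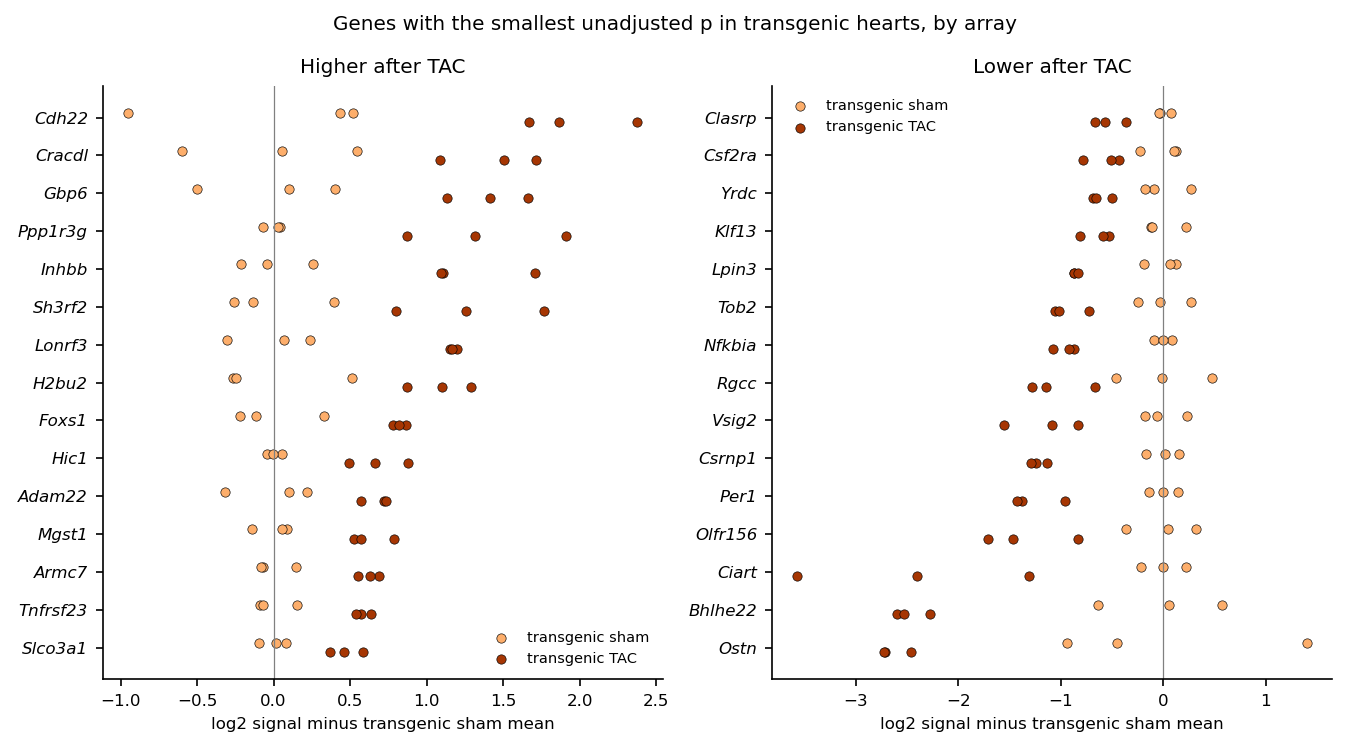
Log2 signal minus the transgenic sham mean (x axis) on the 3 transgenic sham (light) and 3 transgenic TAC (dark) arrays for the 15 named genes in each direction with the smallest unadjusted p (y axis). The groups do not overlap in any of these genes, and none passed the threshold, the lowest adjusted p being 0.577 for Lpin3.

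Immune genes and markers of other cell types stayed mostly near 0, and in whole ventricle fewer cells of a type and less RNA per cell cannot be told apart. Of 30 interferon-induced genes 25 lay above 0, with a median of 0.19, and the list's level was -0.17, 0.32 and 0.44 on TAC 1, 2 and 3 and 0.21, 0.04 and -0.28 on the sham arrays. The groups overlapped, and the median was 0.04 without sham 3. Of 21 cytokine and chemokine genes 12 lay above 0, and Ccl12, which attracts monocytes, was the nearest to a call at 1.27 ± 0.39. Macrophage markers lay above 0 in 13 of 15 genes with a median of 0.14; Fcgr1, an antibody receptor of macrophages, was higher on every TAC array, by 0.90 ± 0.26.

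Fibroblast markers had a median of 0.15 over 11 genes, which was -0.06 without TAC 2; endothelial markers had 0.07 over 12, smooth muscle and pericyte markers -0.14 over 11 and cardiomyocyte markers -0.08 over 9, with 0 calls in each. Neutrophil and mast cell markers lay below 0 in 7 of 7 genes with a median of -0.72, which was -0.38 without sham 2 and -0.14 with normexp, and the groups overlapped through sham 3. B cell markers lay above 0 in 5 of 5 with a median of 0.74, which was -0.05 without sham 3. Msln, a surface protein of the mesothelium, read -4.82, -4.19 and -4.09 against -1.95, -2.93 and -3.07. It was higher on every TAC array by 1.72 ± 0.40 and fell by 2.06 in wild-type hearts, but the mesothelial list as a whole had a median of -0.04 over 6 genes. Every transgenic reading of Msln lay below the dimmest probe still well above background on sham 2, at -1.89. The common floor was that same value, so with it all transgenic Msln readings became equal and that setting cannot show a difference. The 19 calcineurin and NFAT genes had a median of 0.08, with Ppp3cb itself at 0.11 ± 0.09.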

How the data were processed

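Single-colour Agilent mouse arrays were scanned with Feature Extraction 10.7.3.1, per the file headers. The deposited files hold each spot's intensity (processed signal) with background subtracted, not scaled between arrays. The deposited value table is in log2 units, with every probe centred on its own median across 12 arrays, and served as an alternative. The submitters' processing notes name RMA without saying where it was used.

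The 43020 non-control spots were read, outlier spots left out, spots of a probe averaged, and each array's 75th percentile subtracted in log2. Probes were named by accession through a RefSeq table of GRCm38.p6 (26424 of 39429 probes); the array annotation names another build, so no probe positions are given. Probes had to stand well above background on 3 or more of 12 arrays, and the brightest was taken per gene, leaving 25321 genes, 16653 named. limma 3.58.1 in R 4.3.3 fitted group means over all 12 arrays with 8 residual and 1.78 prior degrees of freedom. Contrasts were TAC against sham in each genotype and their difference, two-sided, with Benjamini-Hochberg adjustment over all genes and a threshold of 0.05. The steps were tested on simulated data. The number of arrays limits the precision.

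The members, the 23 pathway and 14 marker lists and the named genes were chosen with earlier results of these data known. Named genes are a core set, the 15 in each direction with the smallest p, the 10 with the largest difference among genes above background on all 6 arrays without overlap, up to 4 of each list with the smallest p, and the 10 in each direction with the largest wild-type change, of which only some are printed. A few genes that the rule picks are left out of the text. Of 764 listed symbols 735 were tested. Alternatives changed the scaling, background correction (normexp, offset 50), filter, outlier spots, probe choice, samples in the fit, variance model, blocks and arrays left out. normexp ran on median spot signals, since mean ones were not among the columns.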

Additional observations from a re-analysis of the deposited data

Results flagged for a closer look

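The response to TAC differed between transgenic and wild-type hearts, by limma's test of that difference over all genes, for 1847 genes, 44 of which are given here. Values are the transgenic minus the wild-type response on the log2 scale, with 3 arrays in each of 4 groups and adjusted p from 0.0124 to 0.0498. These calls were not kept with normexp correction or with slide as a fixed block. Apart from the core set, these genes were named for a small p or a large difference in these same data, so their sizes are selected ones.

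Matrix and fibroblast genes had the lower transgenic response: -6.40 for Comp, -5.94 for Ltbp2, -5.08 for Cilp, -4.40 for Postn, -4.06 for Sfrp2, -3.79 for Mfap4, -3.60 for Timp1, -3.51 for Fibin, -3.47 for Col1a1, -3.20 for Thbs4, -2.91 for Pamr1, -2.53 for Fbn1 and -1.13 for Col5a3. Hypertrophy and stress genes gave -4.34 for Gdf15, -4.07 for Mthfd2, -3.65 for Myh7, -2.59 for Nppa and -1.17 for Ankrd1. Signal-responsive and other genes with a lower transgenic response gave -2.93 for Rasd1, -2.69 for Bhlhe22, -2.54 for Errfi1, -1.86 for Vsig2, -1.73 for Nfkbia, -1.40 for Per1, -1.37 for Rgcc, -1.32 for Lpin3, -1.26 for Csf2ra, -0.93 for Klf13 and -0.64 for Clasrp. Bhlhe22 was not well above background in transgenic TAC or wild-type sham hearts, so the size of its value is uncertain. With normexp its transgenic difference was 0.25.

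Metabolic and calcium handling genes had the higher transgenic response: 3.71 for Ces1d, 3.57 for Acot1, 1.02 for Lpl, 1.00 for Atp2a2, 0.94 for Trdn, 0.84 for Vldlr, 0.81 for Acadl and 0.66 for Myh6. Other genes with a higher transgenic response gave 3.78 for Msln, 2.85 for Ano10, 2.38 for Cdh22, 1.79 for Gbp6, 1.73 for Cracdl, 0.98 for Mgst1 and 0.93 for Adam22. Msln lay near background in transgenic hearts.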

How the results depend on the processing

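The count of genes called in transgenic hearts was 0 under each alternative except the fit without transgenic TAC 3, so leaving out 1 array in turn gave 0 to 3. Unadjusted counts ran from 398 (normexp) to 3333 (without transgenic sham 1). The wild-type count moved to 1566 with normexp, 11819 with array weights and 545 with slide as a fixed block. Leaving out 1 array gave 2837 to 6226, the lowest without wild-type TAC 3, with 2896 and 3269 without wild-type sham 1 and sham 3.

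The count of genes whose responses differed was 902 with quantile normalization, 619 with median scaling, 0 with normexp, 518 with no filter, 3295 and 3297 with probes above background on all 12 or all 6 transgenic arrays, 3508 with a common floor, 3031 with trended robust variance, 3027 with array weights and 0 with slide as a fixed block. Leaving out 1 array gave 151 to 2338. It was lowest without wild-type sham 3, and was 197, 591, 648 and 537 without wild-type sham 1, sham 2, TAC 1 and TAC 3, and 896, 354 and 948 without transgenic sham 2, TAC 1 and TAC 3. The cause was not tested, except that each array left out leaves fewer samples and each filter changes the number of genes tested.

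With the replicate number as a block the counts were 0 in transgenic hearts, 4587 in wild-type hearts and 739 for the difference. The arrays share only a number: the deviations of same-numbered transgenic arrays correlated at 0.18, 0.02 and -0.17.

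Of 37 list medians in transgenic hearts 24 kept their sign with median scaling and 24 with normexp, and of 212 named genes 187 kept it with slide as a fixed block. Only slide 1 held both transgenic groups, 1 array each, which gives a value with no test. There Acta1 differed by 2.97 and Per1 by -1.57, with the same signs as over all arrays. Other named genes changed sign there, among them Psat1 (0.33 against -1.31), Mthfd2 (0.06 against -1.28) and Comp (-1.08 against 0.19). Phgdh kept its sign but was smaller, at -0.43 against -1.81. Slide 1 thus did not repeat all the gene differences. With 3 arrays a group, the median interval half-width was 1.41-fold. That width is taken before adjustment over all genes, so it is not the smallest difference that could be called. Larger transgenic differences also missed the threshold, among them 2.32 for Acta1 and 2.12 for Myot on the log2 scale. The lack of calls therefore does not show that differences above 1.41-fold were absent. Genes near background, chiefly on transgenic sham 2, are the least certain.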
